A study of Rattus norvegicus with 4 samples.

Results

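The genes of the extracellular matrix, of the proteases that cut it and of the integrins that bind it were followed in rat liver after long dosing with ciprofibrate. Members were the spots whose listed gene symbol, where only 1 is listed, names a collagen, laminin, matrix metalloproteinase, TIMP, integrin, ADAM family protein, fibulin, fibrillin, fibronectin, SPARC family protein, osteopontin, decorin, biglycan, lumican, lysyl oxidase or thrombospondin. The rule found 75 spots of 45 cDNA clones for 44 genes, out of 3102 genes named by 1 symbol on the array. No fibulin, fibrillin or lysyl oxidase was among them. By their symbols the rule also caught Itgb1bp2 and Itgb3bp, which bind integrin tails and are not integrins themselves, and Adamtsl4, an ADAMTS-like protein with no protease domain. Another 2 spots, each listed with several symbols of which one fits the rule, were left out.

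Each of 4 cDNA arrays compared liver RNA of a ciprofibrate-treated rat (50 mg per kg of body weight daily, 60 days) with a single RNA pool from 5 control rats. The treated animals were 4 female Fischer rats, a laboratory strain, and the labels give neither strain nor sex of the controls. They also give no age, no vehicle and no number for the rats, and the control pool entered every array, so the spread between control rats is not measured. Ciprofibrate activates PPARα, a nuclear receptor that switches on fatty acid oxidation in rodent liver. Replicates 1 to 4 are the arrays in the order of the samples, and the order carries no meaning. Each array is taken as a different treated rat. Since the rats are not numbered this is not certain, and p-values measure only the spread between these 4 hybridisations.

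The liver matrix is sparse by comparison with that of other organs. Fibrillar collagens, chiefly types I, III and V, form the fibres around portal tracts, while type IV collagen and laminins form basement membranes under vessels and bile ducts and a looser network along the sinusoids. Stellate cells make much of the collagen, and their activation, with more type I collagen and more TIMP, is the core of fibrosis. Integrins are pairs of an alpha and a beta subunit that tie cells to this matrix, and matrix metalloproteinases and ADAM proteases cut matrix and cell surface proteins.

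A value here is the log2 ratio of the 2 channels of an array, with the array median set to 0. Channel 1 held the treated liver and channel 2 the control pool, per the labels, which name no dye. A positive ratio is therefore taken to mean likely more RNA after ciprofibrate, and this direction is not settled. In a panel of 30 textbook targets of peroxisome proliferators, 13 were measured on all 4 arrays, of which 9 had a mean above 0 and 4 a mean below it, with 5 positive calls and 1 negative call. Of the positive calls 4 lay in left blocks of the slide, where positive ratios were more frequent among all clones. The negative call was that of Acot2 (-0.39 ± 0.09, SD, n = 4, limma adjusted p = 0.0237). After correction for position on the slide, described with the arrays, 3 of the 5 positive calls held. The negative call of Acot2 did not (-0.17 ± 0.08, adjusted p = 0.131), and Cpt1a was called negative there (-0.35 ± 0.09, adjusted p = 0.0315). The panel is a narrow basis for the direction. If the direction were turned, every sign given here would turn with it.

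Ratios were missing for between 1171 and 1189 of the 7688 spots of an array, and 4704 clones, named or not, had a ratio on all 4 arrays and were tested together. Over these clones the arrays correlated with Pearson's r between 0.47 and 0.76 (across clones, which are not independent replicates), and the 3 lowest values were those of replicate 2 with the others. Ratios also went with place on the slide. In the layout read from the values, 8 printing blocks in 2 columns, the clones of the left blocks had a median of 0.15 and those of the right blocks a median of -0.16 (log2). Each member call below is therefore given with its block column and with its surface-corrected value, that is, after a smooth surface over the spot positions had been subtracted from each array. For genes outside the rule the text says whether the call held. In bulk tissue fewer cells of a type and less RNA per cell cannot be told apart.

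Of the 45 clones, 40 clones of 39 genes had a ratio on every array. The clones of Adam17, Adamts6, Mmp12 and Thbs4 had no measured ratio on any array. Adam9 had one on replicate 2 (-2.27) and on replicate 4 (-1.49) and was not tested. A missing ratio has no stated cause in the table, so these 5 clones have neither a high nor a low level here.

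Changes among the 40 tested clones were small and went both ways. By limma, with p-values adjusted over all 4704 clones (Benjamini-Hochberg) and a threshold of 0.05, 10 clones were positive, 9 were negative and 21 were not called. Over all tested clones 13.6% were positive calls and 15% were negative calls, 28.6% together, against 10 of 40 and 9 of 40 here. The median mean ratio was -0.04 for the 40 clones and -0.01 for all clones. No mean of these 40 clones reached 2-fold. The largest positive call was 1.55-fold and the largest negative call 1.71-fold.

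The calls followed the block columns. Of the 10 positive calls 9 lay in left blocks, and of the 9 negative calls 8 lay in right blocks, with 20 member clones tested in each column. Among all clones of the left blocks 25.5% were positive and 8.12% negative calls (33.6% together), and among those of the right blocks 1.38% were positive and 22.1% negative calls (23.5% together). With the surface subtracted, 0 of the 40 clones were positive calls (limma, 5 at an unadjusted p under 0.05) and 8 were negative calls, against 2.85% and 11.3% of all clones (14.1% together). None of the 10 positive calls held there and 6 of the 9 negative ones did: Itga1, Itgb1, Itgb3bp, Lamb2, Mmp13 and Timp3. The median of the positive calls went from 0.45 to 0.20 and that of the negative calls from -0.52 to -0.50. With only the median of each block subtracted, 5 of the positive and 6 of the negative calls held. The positive ones were Col5a2, Itga7, Lamc1, Sparcl1 and Spp1, and the negative ones were the same 6 as with the surface subtracted. Sparc (0.33 ± 0.03, limma adjusted p = 0.0276) and Timp4 (-0.36 ± 0.16, adjusted p = 0.0377) became calls with block medians subtracted.

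Leaving out 1 array changed the counts as well. Without replicate 1 there were 3 positive and 3 negative calls, without replicate 2 there were 11 and 9, without replicate 3 there were 2 and 4, and without replicate 4 there were 2 and 3. Fits of 3 arrays have less power, and its part in these counts was not tested. Over all clones there were 638 positive and 706 negative calls with 4 arrays. Without replicate 2 there were more, 880 and 904. Without replicates 1, 3 and 4 there were fewer, at 310 and 382, 100 and 322, and 153 and 359. Col5a2, Sparcl1, Itgb1, Lamb2 and Timp3 kept their calls without each array in turn, and of these Itgb1, Lamb2 and Timp3 also kept them without the surface.

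**Figure D1:**
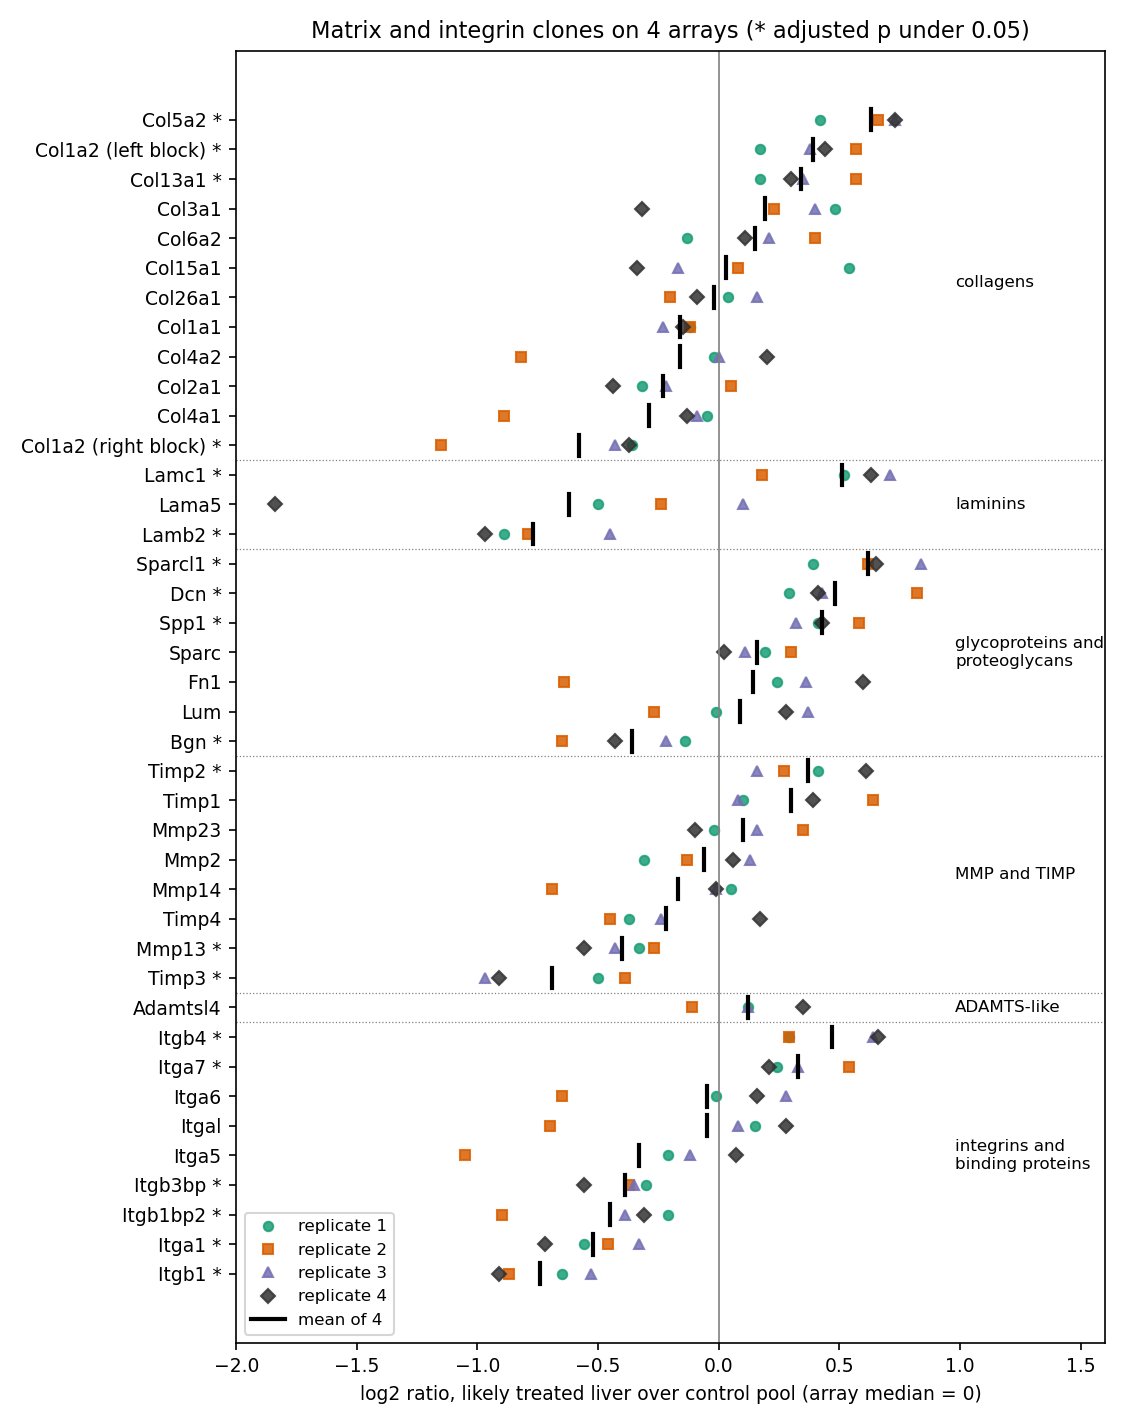
Log2 ratio (x axis) of each of the 40 tested matrix and integrin clones on the 4 arrays, by group. Each symbol is 1 array and the black bar the mean of 4. Asterisks mark the 19 clones called at an adjusted p under 0.05. Positive and negative calls occur in every group with more than 1 clone, and replicate 2 is far to the left for Fn1, Itga5, Itga6, Itgal, Col4a1, Col4a2, Mmp14 and the right-block clone of Col1a2.

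**Figure D2:**
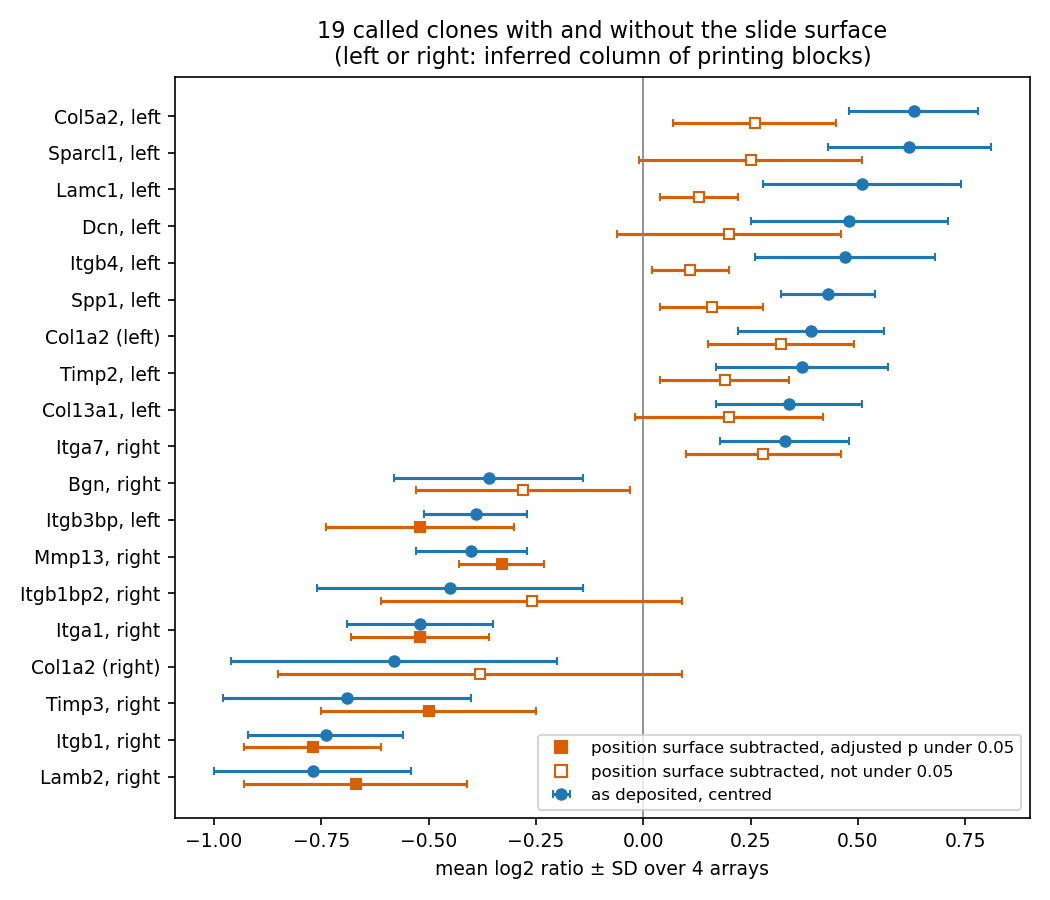
Mean log2 ratio ± SD over 4 arrays of the 19 called clones as deposited and centred (circles) and with the position surface subtracted (squares, filled where the adjusted p stayed under 0.05). The 10 positive calls move toward 0, while Itgb1, Itga1, Lamb2, Timp3, Mmp13 and Itgb3bp stay negative calls.

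**Figure D3:**
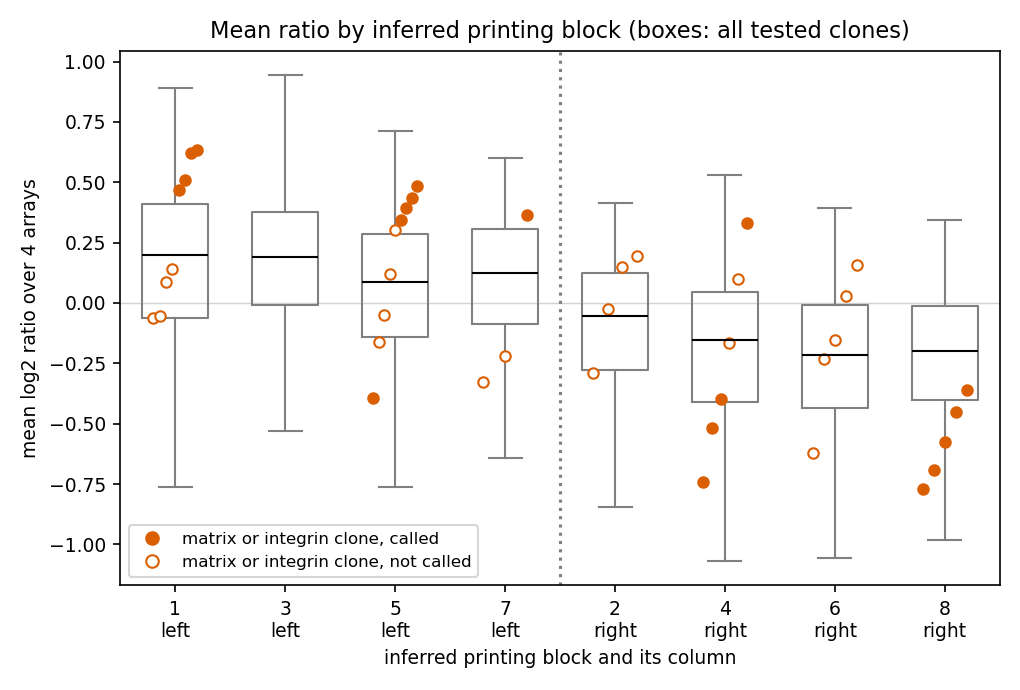
Mean log2 ratio over 4 arrays by inferred printing block. Boxes show the median and quartiles of all tested clones of a block (whiskers reach to 1.5 times the box length at most, outliers not drawn), and circles show matrix and integrin clones, filled where called. Block medians lie between 0.09 and 0.20 in the left column and between -0.21 and -0.05 in the right column.

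The collagens divided into positive and negative ratios. Of 12 tested clones, 3 were positive calls (13.6% over all clones), 1 was a negative call (15%) and 8 were not called. The median was 0.00. Col5a2, a chain of type V collagen that nucleates and thins type I fibrils, had log2 ratios of 0.42, 0.66, 0.73 and 0.73 on replicates 1 to 4. It was positive on every array and in both of its spots, and had the highest mean of all members at 0.63 ± 0.15 (SD, n = 4, limma adjusted p = 0.00742). It lay in a left block, and its surface-corrected mean was 0.26 ± 0.19 (adjusted p = 0.0958). Col13a1, a transmembrane collagen of cell junctions, was at 0.17, 0.57, 0.35 and 0.30, also positive throughout, with a mean of 0.34 ± 0.17 (adjusted p = 0.0438). It too lay in a left block, and its corrected mean was 0.20 ± 0.22 (adjusted p = 0.193).

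Type I collagen gave ratios of opposite sign from different clones of one gene. Col1a2 encodes the second chain of type I collagen, the main fibrillar collagen of scar. Its clone in a left block had log2 ratios of 0.17, 0.57, 0.38 and 0.44, and its clone in a right block, printed as 2 spots, had -0.36, -1.15, -0.43 and -0.37. The first was a positive call at 0.39 ± 0.17 (SD, n = 4, limma adjusted p = 0.0297) and the second a negative call at -0.58 ± 0.38 (adjusted p = 0.0278). Both calls ended with the surface subtracted, at 0.32 ± 0.17 (adjusted p = 0.0603) and -0.38 ± 0.47 (adjusted p = 0.164). The ranges did not overlap, and the first exceeded the second on every array, by 0.53, 1.73, 0.81 and 0.81, a mean difference of 0.97 ± 0.52. An exact sign-flip test of 4 arrays gives p = 0.125 here, which is the smallest p such a test can reach, two-sided. The clones were compared because their signs were opposed on all 4 arrays. The order and the p were therefore fixed and add nothing to the calls. The difference was 0.70 ± 0.62 with the surface subtracted and again positive on all 4 arrays. Averaged over its spots as one gene, Col1a2 was at -0.25 and was not called (adjusted p = 0.122). In that average the right-block clone weighed more, with 2 spots against 1. Clone sequences were not checked, so which clone represents the Col1a2 transcript better was not tested. Col1a1, the partner chain, was at -0.12, -0.12, -0.23 and -0.15, negative on every array but close to 0, with a mean of -0.16 ± 0.05 (adjusted p = 0.231).

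Type IV collagen, the network collagen of basement membranes, was low on a single array. Col4a1 had log2 ratios of -0.05, -0.89, -0.09 and -0.13, and Col4a2 had -0.02, -0.82, 0.00 and 0.20. The chains differed from each other by 0.03 to 0.33 on an array, with Col4a1 the lower on all 4, and both were lowest on replicate 2 by a wide gap. Neither was called (means -0.29 ± 0.40 and -0.16 ± 0.45, limma adjusted p = 0.185 and 0.4945), and without replicate 2 the means were -0.09 and 0.06. Their clones lay in different block columns, Col4a1 in the right and Col4a2 in the left, and with the surface subtracted the sign of the difference turned, with Col4a1 the higher on 3 of 4 arrays by a mean of 0.05 ± 0.06. A low replicate 2 was not particular to this pair, with Mmp14 at 0.05, -0.69, -0.01 and -0.01.

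The Col4a1 and Col4a2 genes lie head to head and start from one short shared stretch, printed here, whose part in the ratios was not tested. In RefSeq's promoter table of the GRCr8 assembly their starts are 76 bases apart, at chr16:84885521-84885596. The stretch between them reads, 5′ to 3′ on the forward strand toward Col4a1, with the match to a GC box (GGGCGG, searched on both strands) in capitals:
Col4a1-Col4a2: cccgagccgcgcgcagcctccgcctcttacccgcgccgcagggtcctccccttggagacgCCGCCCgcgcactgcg
It is 78.9% G and C and holds no TATAAA. The sequence is the reference of another rat strain and was not read from these animals.

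The other collagens were not called. Col3a1, the fibrillar collagen of reticular fibres, was at 0.48, 0.23, 0.40 and -0.32, positive on 3 arrays, with both of its spots together on replicates 1 to 3 and apart on replicate 4 (0.09 and -0.74). Col2a1, the cartilage collagen, had a mean of -0.23 ± 0.21 (SD, n = 4, limma adjusted p = 0.151), which became a negative call without replicate 2 (-0.33, adjusted p = 0.0306). Col15a1, a basement membrane collagen, ranged from -0.34 to 0.54. Col6a2, of the beaded filaments, had a mean of 0.15 ± 0.22, and Col26a1 a mean of -0.02 ± 0.16.

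Laminins are trimers of an alpha, a beta and a gamma chain and the main glycoproteins of basement membranes. The 3 measured chains parted. Lamb2, the beta-2 chain, had log2 ratios of -0.89, -0.79, -0.45 and -0.97, negative on every array and in both spots on each of them, in a right block. Its mean of -0.77 ± 0.23 (SD, n = 4, limma adjusted p = 0.00622) was the lowest among the members and stood at -0.67 ± 0.26 with the surface subtracted (adjusted p = 0.0172). Lamc1, the gamma-1 chain found in most laminins, was at 0.52, 0.18, 0.71 and 0.63, all above 0 and lowest on replicate 2, with a mean of 0.51 ± 0.23 (adjusted p = 0.0190). Its call ended with the surface subtracted, at 0.13 ± 0.09 (adjusted p = 0.236), and it lay in a left block. Lamc1 exceeded Lamb2 on all 4 arrays by a mean of 1.28 ± 0.28, or 0.80 ± 0.31 with the surface subtracted. As deposited, this order follows from their opposite signs on every array and is no separate result. Lama5, the alpha-5 chain, was at -0.50, -0.24, 0.10 and -1.84, a spread set by replicate 4, and was not called (-0.62 ± 0.85, adjusted p = 0.127). Lama5 was printed as 1 spot, so the value on replicate 4 has no second spot beside it. Without replicate 4 its mean was -0.21.

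Among the glycoproteins and small proteoglycans that decorate or regulate the fibres, 3 of 7 clones were positive calls and 1 was a negative call. Over all clones these shares were 13.6% and 15%. The other 3 were not called, and the median of the 7 was 0.16. Sparcl1, a secreted relative of SPARC, had log2 ratios of 0.39, 0.62, 0.84 and 0.65, positive in both spots on each array, with a mean of 0.62 ± 0.19 (SD, n = 4, limma adjusted p = 0.00894). Dcn, decorin, a small leucine-rich proteoglycan that binds collagen fibrils and TGF-beta, was at 0.29, 0.82, 0.43 and 0.41, highest on replicate 2, with a mean of 0.48 ± 0.23 (adjusted p = 0.0219). Spp1, osteopontin, an integrin-binding phosphoprotein that bile duct cells and activated macrophages secrete, was at 0.41, 0.58, 0.32 and 0.43, a narrow range with a mean of 0.43 ± 0.11 (adjusted p = 0.0178). All of these lay in left blocks, and with the surface subtracted they stood at 0.25 ± 0.26, 0.20 ± 0.26 and 0.16 ± 0.12 and were no longer called.

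Biglycan went the other way from decorin, its closest relative. Bgn had log2 ratios of -0.14, -0.65, -0.22 and -0.43, negative on every array, in a right block, with a mean of -0.36 ± 0.22 (SD, n = 4, limma adjusted p = 0.04998, just under the threshold). On replicate 1 its spots disagreed in sign, at 0.08 and -0.37. Dcn exceeded Bgn on each array by a mean of 0.84 ± 0.44, and by 0.49 ± 0.48 with the surface subtracted. Here too the order as deposited was fixed by the opposite signs, and the clones lay in different block columns. The Bgn call ended without each array in turn (adjusted p from 0.0613 to 0.156) and with the surface subtracted (-0.28 ± 0.25, adjusted p = 0.111).

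Fibronectin, the adhesive glycoprotein that hepatocytes also secrete into plasma, depended on one array. Fn1 was at 0.24, -0.64, 0.36 and 0.60, with both spots within 0.06 of each other on every array. Its mean was 0.14 ± 0.54 (SD, n = 4, limma adjusted p = 0.603), and without replicate 2 it was a positive call at 0.40 (adjusted p = 0.0250). Its surface-corrected mean was -0.25 ± 0.32. Lum, lumican, another small proteoglycan of collagen fibrils, had a mean of 0.09 ± 0.29 and turned with the surface subtracted to a negative call at -0.28 ± 0.03 (adjusted p = 0.0419). Sparc, a collagen-binding glycoprotein of remodelling tissue, was slightly positive on every array, from 0.02 to 0.30, and was not called (adjusted p = 0.255).

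Matrix metalloproteinases are zinc enzymes that cut collagens and other matrix proteins, and the TIMPs are their inhibitors. Of 8 tested clones, 1 was a positive call (13.6% over all clones), 2 were negative calls (15%) and 5 were not called. Mmp13, the main interstitial collagenase of rodents, had log2 ratios of -0.33, -0.27, -0.43 and -0.56, negative in both spots on each array, in a right block, with a mean of -0.40 ± 0.13 (SD, n = 4, limma adjusted p = 0.0249). It held with the surface subtracted at -0.33 ± 0.10 (adjusted p = 0.0364), and ended without replicate 1, 3 or 4 at similar means (-0.42, -0.39 and -0.34).

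Mmp13 is known for its AP-1 site next to the TATA box, and the 120 bases before its start (RefSeq, GRCr8, chr8:12782709-12782828, forward strand) are printed to show both, in capitals:
Mmp13: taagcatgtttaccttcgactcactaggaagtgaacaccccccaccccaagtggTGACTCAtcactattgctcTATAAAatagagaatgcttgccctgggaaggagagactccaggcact
The AP-1 match (TGANTCA) begins 66 bases and the TATA match (TATAAA) 47 bases before the start. In windows of 250 bases before the start, TGANTCA was found on either strand in 6.34% and TATAAA in 12.9% of the table's 33469 promoters. A match is a description and not a test of binding.

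The gelatinase Mmp2 was at -0.31, -0.13, 0.13 and 0.06 (log2) and was not called as deposited (mean -0.06 ± 0.20, SD, n = 4, limma adjusted p = 0.699). With the surface subtracted it was a negative call at -0.41 ± 0.15 (adjusted p = 0.0299). Mmp14, the membrane-anchored metalloproteinase that activates Mmp2, was at 0.05, -0.69, -0.01 and -0.01, so that only replicate 2 stood away from 0. Mmp23, a membrane metalloproteinase, had a mean of 0.10 ± 0.20.

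The inhibitors parted like the laminins. Timp3, the TIMP that stays bound to the matrix and also inhibits ADAM proteases, had log2 ratios of -0.50, -0.39, -0.97 and -0.91, negative throughout, with a mean of -0.69 ± 0.29 (SD, n = 4, limma adjusted p = 0.0108). The values come from 1 spot in a right block, since its other spot, in a left block, had no ratio on any array. The call held with the surface subtracted, at -0.50 ± 0.25 (adjusted p = 0.0350). Timp2, a soluble TIMP that also takes part in activating Mmp2, was at 0.41, 0.27, 0.16 and 0.61, positive throughout, with a mean of 0.37 ± 0.20 (adjusted p = 0.0418). It lay in a left block, and its corrected mean was 0.19 ± 0.15 (adjusted p = 0.154). Timp2 exceeded Timp3 on every array by a mean of 1.06 ± 0.36, and by 0.68 ± 0.12 with the surface subtracted. The order as deposited again follows from opposite signs on every array and is no separate result. Timp1, the TIMP best known from liver fibrosis, was at 0.10, 0.64, 0.08 and 0.39 and was not called (0.30 ± 0.27, adjusted p = 0.0994), nor was Timp4 (-0.22 ± 0.28, adjusted p = 0.212).

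ADAM proteins are membrane or secreted proteases that release growth factors or trim matrix proteins. Adamtsl4, which binds microfibrils, was the only clone of the group with a ratio on every array, at 0.12, -0.11, 0.12 and 0.35, and was not called (limma adjusted p = 0.425). For the proteases Adam9, Adam17 and Adamts6 no comparison could be made.

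Integrin subunits went both ways. Of 7 subunits tested, 2 were negative calls (15% over all clones), 2 were positive calls (13.6%) and 3 were not called. The median was -0.05. Itgb1, the beta-1 subunit shared by most matrix-binding integrins, had log2 ratios of -0.65, -0.87, -0.53 and -0.91, at -0.40 or lower in both spots on each array. Its mean was -0.74 ± 0.18 (SD, n = 4, limma adjusted p = 0.00534), or 1.67-fold. Subtracting the surface left it at -0.77 ± 0.16 (adjusted p = 0.00586), and leaving out 1 array gave means from -0.81 to -0.68, all called. Itga1, the alpha-1 subunit, which pairs with beta-1 as a collagen and laminin receptor, was at -0.56, -0.46, -0.33 and -0.72, with a mean of -0.52 ± 0.17 (adjusted p = 0.0136) and the same mean with the surface subtracted (adjusted p = 0.0167). The call of Itga1 ended without replicate 1 (adjusted p = 0.0538) and replicate 4 (adjusted p = 0.0623). Both clones lay in the same right block, and Itgb1 was the lower on all 4 arrays by a mean of 0.22 ± 0.14.

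The 120 bases before the Itgb1 start (RefSeq, GRCr8, chr19:73602157-73602276, forward strand) are printed as those of the integrin farthest from 0, with each GC box match (GGGCGG on either strand) in capitals:
Itgb1: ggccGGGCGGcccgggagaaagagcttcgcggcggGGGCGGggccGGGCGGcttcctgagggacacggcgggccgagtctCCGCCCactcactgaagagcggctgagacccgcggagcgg
Of the table's promoters 30.5% hold such a match within 250 bases before the start. The Itgb1 stretch is 77.5% G and C and has no TATAAA, a makeup unlike that of Mmp13, which is 48.3% G and C, and both clones were negative calls.

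The positive integrin calls were subunits of narrower use. Itgb4, the laminin-binding beta-4 subunit of epithelial hemidesmosomes, had log2 ratios of 0.29, 0.29, 0.64 and 0.66, with a mean of 0.47 ± 0.21 (SD, n = 4, limma adjusted p = 0.0218). Its call ended with the surface subtracted, at 0.11 ± 0.09 (adjusted p = 0.305), and it lay in a left block. Itga7, a laminin receptor subunit best known from muscle, was at 0.24, 0.54, 0.33 and 0.21, with a mean of 0.33 ± 0.15 (adjusted p = 0.0458), and was the only positive call in a right block. It was at 0.28 ± 0.18 with the surface subtracted (adjusted p = 0.0789) and at 0.46 ± 0.13 with block medians subtracted (adjusted p = 0.0198). It was among the 5 positive calls that held with block medians subtracted.

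Itga6, the alpha subunit that pairs with Itgb4, did not share its ratio. Itga6 was at -0.01, -0.65, 0.28 and 0.16 (log2) and lay below Itgb4 on each array, by a mean of 0.52 ± 0.29. With the surface subtracted Itga6 minus Itgb4 was -0.30 ± 0.37, less than its SD and above 0 on no array. Itga5, the alpha subunit of the fibronectin receptor, was at -0.21, -1.05, -0.12 and 0.07, and Itgal, the alpha subunit of the leukocyte integrin LFA-1, at 0.15, -0.70, 0.08 and 0.28. None of these 3 was called (limma adjusted p from 0.197 to 0.841), and all were lowest on replicate 2. The integrin-binding proteins caught by the rule were both negative calls. Itgb3bp, a centromere protein that also binds the beta-3 tail, had a mean of -0.39 ± 0.12 (adjusted p = 0.0244) in a left block and was at -0.52 ± 0.22 with the surface subtracted (adjusted p = 0.0259). Itgb1bp2, the muscle protein melusin, was at -0.45 ± 0.31 (adjusted p = 0.0388) in a right block and lost its call there (-0.26 ± 0.35, adjusted p = 0.211).

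Replicate 2 lay far below the other arrays for some member clones, at a share near that of all clones. On it 9 of the 40 clones, or 22.5%, lay at least 0.5 (log2) below the mean of the other arrays, against 0 clones on replicate 1, 0 on replicate 3 and 2 on replicate 4. Over all 4704 clones the share on replicate 2 was 18.9%. The 9 were Fn1, Itga5, Col4a2, Itgal, Col4a1, Itga6, the right-block clone of Col1a2, Mmp14 and Itgb1bp2. Of these the Col1a2 clone and Itgb1bp2 were negative calls and the others were not called. Of 10 uncalled clones checked without replicate 2, 2 became calls, Fn1 and Col2a1. Fn1 departed most, by -1.04. Lama5 alone lay 0.5 above the mean of the others on replicate 2. Among liver cell markers, the hepatocyte genes were also lowest there. The clones of Alb, serum albumin, were at -1.55 and -1.60 on replicate 2 and between -0.42 and 0.12 on the others. Of the markers of other cells, Cd5 (-0.59), Acta2 (-0.98) and Lyz2 (-0.02) were lowest on replicate 2 as well. Des, Lrat, Cygb, Ngfr, Kdr, Cdh5, Spp1 and Cma1 were not. The part of hepatocyte RNA in these values was not tested.

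**Figure D4:**
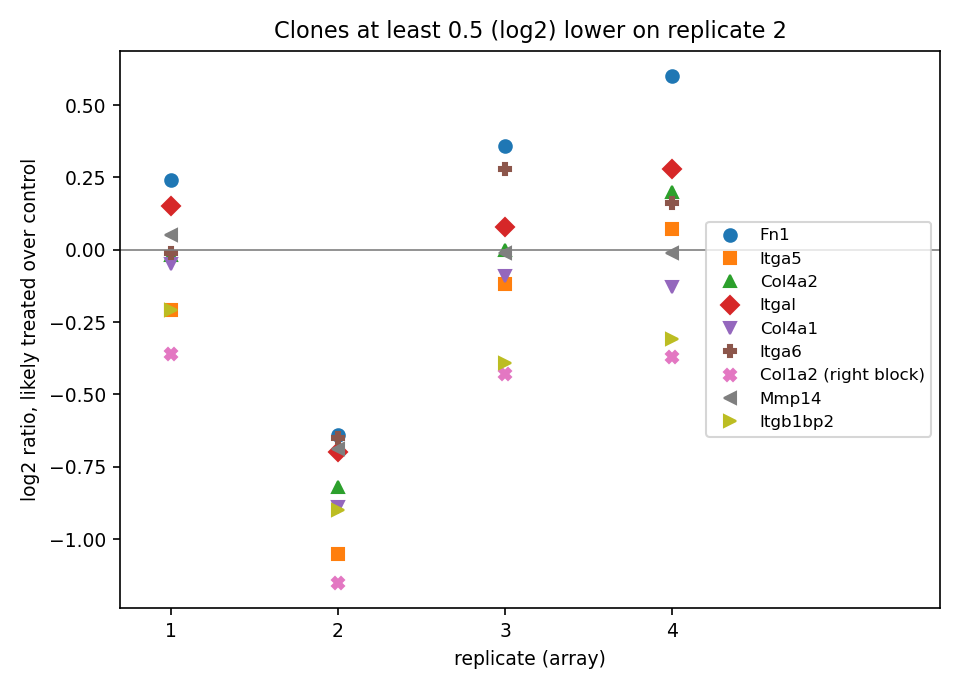
Log2 ratio (y axis) of the 9 clones that lay at least 0.5 lower on replicate 2 than the mean of the other arrays, by array (x axis). Each symbol is 1 clone. On replicate 2 they lie between -1.15 and -0.64, and on the other arrays between -0.43 and 0.60.

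Duplicate spots showed how much of the spread was within an array. Of the 45 clones, 30 were printed as 2 spots, and on replicates 1 to 4 both spots had a ratio for 26, 26, 25 and 26 of them. The median absolute difference between spots was 0.11, 0.06, 0.11 and 0.09 (log2), close to the 0.08 to 0.09 of all clones with 2 spots. Over all arrays 95 of 103 pairs had one sign. The widest gaps were those of Col3a1 on replicate 4 (0.09 and -0.74), Lamb2 on replicate 4 (-1.36 and -0.58) and Itga1 on replicate 1 (-0.18 and -0.94), as large as many called ratios. Spots of a clone mostly lay in the same block and so shared its place. The 15 clones printed as 1 spot had no such check. Among them were Lama5, Col4a1, Col4a2, Col13a1, Itga5, Itga6, Itgal and Timp4.

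**Figure D5:**
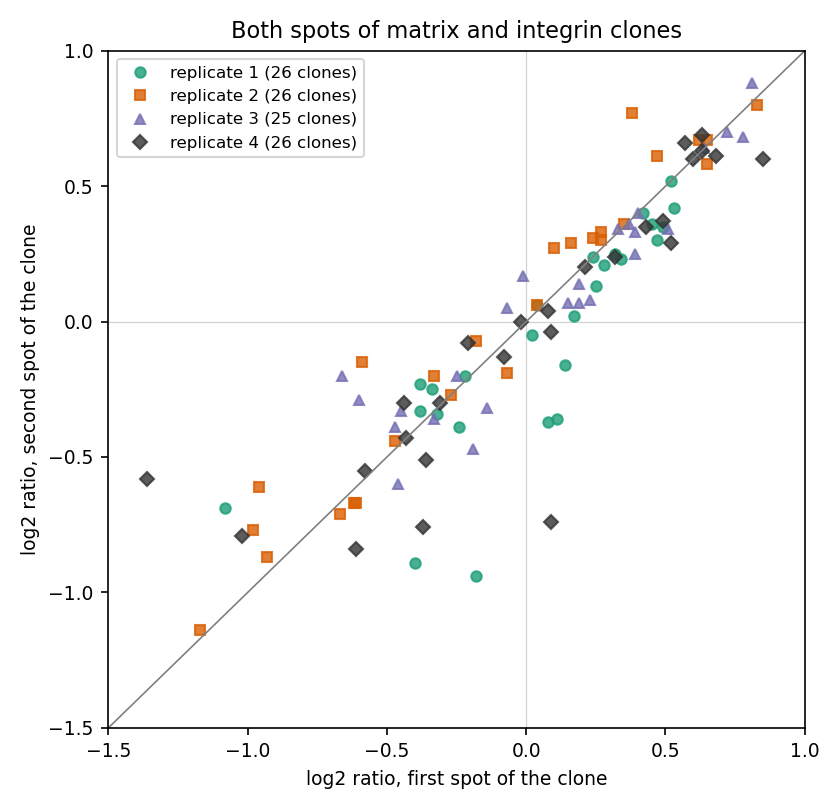
Log2 ratio of the second spot (y axis) against the first spot (x axis) of each matrix or integrin clone printed as 2 spots, with 1 symbol per clone and array and the line of equality. Most of the 103 pairs lie near the line, with 8 of different sign or at 0 in 1 spot.

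Genes that build, cut or sense the matrix but fall outside the rule were read from 5 lists. Over all tested clones 13.6% were positive and 15% negative calls. Of 8 clones of collagen and elastic fibre processing, 0 were called (limma, 1 at an unadjusted p under 0.05), with Plod1, a lysyl hydroxylase, at 0.27 ± 0.21 and P4ha1, a prolyl hydroxylase, at 0.21 ± 0.19 (log2, SD, n = 4). Plod1 became a positive call with the surface subtracted (0.37 ± 0.18, adjusted p = 0.0460). Of 12 clones of basement membrane proteins and proteoglycans, 3 were negative calls and none was positive. Sdc1, the heparan sulfate proteoglycan syndecan-1 of the hepatocyte surface, was at -0.70, -0.71, -0.96 and -0.87, all far from 0, with a mean of -0.81 ± 0.13 (adjusted p = 0.00378). Srgn, the proteoglycan of blood cell granules, was at -0.96 ± 0.31 (adjusted p = 0.00473) and Vtn, vitronectin, a plasma protein that integrins bind, at -0.58 ± 0.51 (adjusted p = 0.0493). All 3 calls held with the surface subtracted. Sdc2 of the same list, not called at -0.23 ± 0.10, became a negative call there (-0.58 ± 0.15, adjusted p = 0.0124).

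Of 10 clones of the plasminogen system, cathepsins and other proteases, 4 were positive calls and none was negative. In left blocks, where 6 of the 10 lay, 25.5% of all clones were positive calls. Over all clones 13.6% were positive and 15% negative calls, which also stand beside the lists that follow. Ctss, cathepsin S of macrophages, was at 0.44 ± 0.15 and Mme, neprilysin, at 0.48 ± 0.21 (log2, SD, n = 4, limma adjusted p = 0.0201 and 0.0209). All 4 positive calls of this list lay in left blocks and none held with the surface subtracted. Of 9 clones of integrin adhesion, 2 were positive calls, Fyn, a Src family kinase (0.45 ± 0.11), and Rap1b, a GTPase that activates integrins (0.34 ± 0.10), and neither held. A second Rap1b clone, in a right block, was at -0.41 ± 0.32 (adjusted p = 0.0548) and was not called. Of 11 clones of the TGF-beta and growth factor list, 4 were positive and 2 negative calls, of which 1 negative call held, Pdgfra, a PDGF receptor of mesenchymal cells (-0.40 ± 0.15). Fst, the activin antagonist follistatin, was at 0.52 ± 0.15 and did not hold.

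Markers of the cells that make matrix moved in both directions. Of 5 measured stellate cell markers of 10 listed, 2 were positive calls (13.6% over all clones) and 1 was a negative call (15%). Des, desmin, the classical rat stellate cell marker, was at 0.35, 0.65, 0.77 and 0.71 (mean 0.62 ± 0.18, log2, SD, n = 4, limma adjusted p = 0.00897), and Acta2, the smooth muscle actin of activated stellate cells, at -0.33, -0.98, -0.56 and -0.58 (mean -0.61 ± 0.27, adjusted p = 0.0137). Only Acta2 held with the surface subtracted, at an adjusted p of 0.00609 and farther from 0. Of the endothelial list Kdr, in a left block, was a positive call at 0.40 ± 0.21 (adjusted p = 0.0343) that did not hold (0.14 ± 0.17, adjusted p = 0.274), and Cdh5 was at -0.85 ± 0.85 (adjusted p = 0.0541). Among hepatocyte markers all 6 clones had means below 0, and Tf, transferrin (-0.69 ± 0.20), and Fgb, a fibrinogen chain (-0.49 ± 0.31), were negative calls, of which that of Tf held. Lyz2 of macrophages (0.18 ± 0.19) and Cd5 of lymphocytes (0.17 ± 0.52) were not called, and Cma1, a mast cell chymase, was a positive call at 0.69 ± 0.11 that held (0.38 ± 0.16, adjusted p = 0.0384). Spp1, given above, was the only measured marker of bile duct cells. Ratios carry no level, so none of these cells can be shown present or absent, and the part of cell makeup in the matrix ratios was not tested.

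Promoters were available for 29 of the 44 genes in the RefSeq table, 250 bases before each start on GRCr8. GC boxes (GGGCGG) were found in 2 of 7 genes with a positive call, 2 of 7 with a negative call and 7 of 12 tested genes without a call. Of all promoters 30.5% held one. CCAAT was in 1, 4 and 3 of these groups' genes (34.0% of all promoters), TATAAA in 3, 2 and 0 (12.9%) and TGANTCA in 0, 1 and 0 (6.34%). Col1a2 is counted on both sides because of its opposed clones. The DR1 element, a direct repeat of AGGTCA with 1 base of any kind between, the consensus to which PPARα binds with RXR, was in none of the 29 and in 0.0508% of all promoters, which says only that these letters are not in these windows.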

How the data were processed

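Per the labels, each of the 4 arrays set liver RNA of a treated rat (channel 1) against a pool from 5 control rats (channel 2). The authors deposited log10 of a ratio for each spot, a unit read from the values; how ratios were filtered or normalized is not stated in any source used here. The most repeated value of each array was set to missing. Values were converted to log2, spots of one listed clone averaged (5674 rows) and arrays centred on their medians. Names are those of GEO's platform annotation, with 5140 of the 5169 single-symbol probes matched to GRCr8 by Entrez number. The mean of each fully measured clone was tested against 0 using limma 3.58.1 under R 4.3.3 (lmFit, eBayes, Benjamini-Hochberg, threshold 0.05, two-sided); the number of arrays limits the precision. The script was tested on simulated data. The slide layout (8 blocks of 31 by 31 spots) is inferred, and the surface is a robust loess (span 0.05, degree 1, 4 iterations). Named were all called members, then the 2 largest remaining means per group, the other members by value or range, and the 2 smallest p-values per list; further list genes were named after their values were seen. Members, lists and alternatives were chosen with earlier results of these data known, and the paired comparisons after the values were seen.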

Additional observations from a re-analysis of the deposited data

Results flagged for a closer look

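In 2 of the 29 clones checked 1 array stood apart from the other 3. Its gap took up more of the whole range than Dixon's limit for 4 values, which chance passes in about 1 of 20 groups. Checked were the called members and the 2 largest remaining means per group. The other tested members were not checked, Mmp14 among them (0.05, -0.69, -0.01 and -0.01 on replicates 1 to 4). Both flagged values were on replicate 2. The right-block clone of Col1a2 was at -1.15 (log2 ratio) on replicate 2 and between -0.43 and -0.36 on the other arrays, a gap of 0.91 of the range. Without replicate 2 it was a negative call at -0.39 (limma adjusted p = 0.0160). Col4a1 was at -0.89 on replicate 2 and between -0.13 and -0.05 on the others, a gap of 0.908 of the range.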

How the results depend on the processing

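Of 10 positive and 9 negative calls among the member clones, the numbers stayed within 1.5 times with array weights, a robust prior, one row per gene, 3 arrays as the minimum, a common spread, quantiles or uncentred values. Positive calls fell to 6 with block medians subtracted and to 0 with the position surface subtracted (limma, 5 at an unadjusted p under 0.05), or to 3 with replicate 2 also left out, an alternative added after seeing the data. Negative calls went to 4 of 45 rows with the most repeated value kept as measured and to 16 of 65 rows with every spot as a row, against 9 of 40. A 2-fold minimum left 0 and 0, limma's treat against 1.2-fold 0 positive (4 at an unadjusted p under 0.05) and 2 negative, and the unmoderated statistic 0 and 0 (10 and 8 at an unadjusted p under 0.05). Leaving out 1 array gave 2 to 11 positive and 3 to 9 negative calls. The Col1a2 clone of the left block reversed to -0.25 as one row per gene, where its 1 spot is averaged with the 2 spots of the other clone. No paired analysis was possible because every array belongs to one group and the controls are a single pool. No intensities were used, so the precision of single spots is unknown.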
